A study of Mus musculus with 36 samples.

Results

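The phase II conjugation enzymes of the liver are described here by the 49 genes of the UDP-glucuronosyltransferase (UGT), glutathione S-transferase (GST) and cytosolic sulfotransferase (SULT) families that could be read on the arrays, out of 22180 genes in all. Members were chosen by symbol alone, from the families Ugt1a to Ugt3a, Ugt2b, the Gst classes a, k, m, o, p, t and z, and Sult, with 1 probe set per gene. They were 10 UGT genes (7 Ugt2b and 3 Ugt2a or Ugt3a), 18 GST genes (2 Gsta, 6 Gstm and 10 of other classes) and 21 SULT genes (6 Sult1 and 15 others). A further 14 symbols of these families, among them 8 of Ugt1a, Gsta1 and Gsta2, shared their probe sets with other symbols and are not analysed here. Livers came from mice of strain C57BL/6 and were taken every 4 h, at 6 Zeitgeber times (ZT, hours from lights on) from 0 to 20, from animals in a cycle of 12 h light and 12 h dark. One genotype was WT. The other, TB, carried p53fl/fl, a p53 gene flanked by loxP sites that Cre can delete, among its alleles, and its disease status was lung adenocarcinoma. The series asked how the tumour in the lung relates to daily gene expression in the liver. The labels used here state neither the Cre, nor the age of the tumour, nor age or sex of the mice. Each of the 12 groups of genotype and ZT had 3 arrays, 18 per genotype, and the labels do not say for each replicate that it was another mouse, so p-values measure a spread that may be technical in part.

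Phase II enzymes attach a polar group to drugs, hormones, bile pigments and reactive metabolites, so that the product dissolves and can leave the cell. UGT enzymes in the endoplasmic reticulum transfer glucuronic acid from UDP-glucuronate, GST enzymes join glutathione to electrophiles, and SULT enzymes in the cytosol transfer sulfate from PAPS. Many of their genes respond to the nuclear receptors CAR and PXR or to NRF2, several differ between the sexes in mouse liver, and clock-driven PAR bZIP factors (Dbp, Tef, Hlf) are known to act upstream of liver detoxification.

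Levels are given as log2(intensity + 16), and a difference is TB minus WT on that scale, which understates the change of dim genes. Of the members, 15 had a mean intensity over 1000 and 16 a mean under 32, close to the floor. Levels of different probe sets are not comparable with each other. Closely related genes (the Gstm cluster, the Ugt2b genes, Gstp1 and Gstp2, the Sult2a genes) can share signal on their probe sets. Counts within such a group may thus not be of separate signals. In bulk liver, fewer cells of a type and less RNA per cell cannot be told apart. Medians of the 7 hepatocyte markers lay between 11.58 and 13.57, and the mean of the list per array stayed within -0.11 and 0.093 of its average. The Y-linked gene Eif2s3y was at 7.28 or more and Xist at 5.69 or less on every array. WT ZT 12 replicate 3 held skeletal muscle RNA, with Ckm, the muscle creatine kinase, at 16.74 against a median of 6.20. The arrays also fell into 2 sets on the probe sets with no gene symbol, with 12 arrays (1 of each group) in the smaller and 24 (2 of each group) in the larger, and 30.6% of genes differed in level between the sets. The WT and TB arrays in the smaller set carried matching replicate numbers at 6 of 6 ZT. What the sets stand for is not stated in the labels, so results are given within each set as well.

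Over all 6 ZT, no conjugation enzyme gene differed between the genotypes by limma's test at an adjusted p of 0.05, where 0.176% of all genes did. At an unadjusted p under 0.05 there were 7 members or 14.3%, against 11% of all genes. Of these, 5 were lower in TB (10.2%, against 5.35% of genes) and 2 higher (4.08%, against 5.69%). The sign of the difference leaned one way: 34 of 49 members (69.4%) were lower in TB by any amount, against 46.2% of all genes, with a median of -0.060 against 0.0073. By class, with no test of a difference between classes, the UGT genes were lower in 10 of 10 cases with a median of -0.15, the GST genes in 15 of 18 with a median of -0.062, and the SULT genes in 9 of 21 with a median of 0.022. Among the 33 members with a mean intensity of 32 or more, 29 were lower (median -0.11), and among the 16 dimmer ones 5 were. Without the genes of low mean the SULT genes were lower in 6 of 8 cases with a median of -0.11, against -0.074 for the GST genes and -0.16 for the UGT genes. With quantile normalization the SULT median was -0.0053 with 12 of 21 lower, and the counts for UGT and GST were 10 of 10 and 14 of 18.

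**Figure D1:**
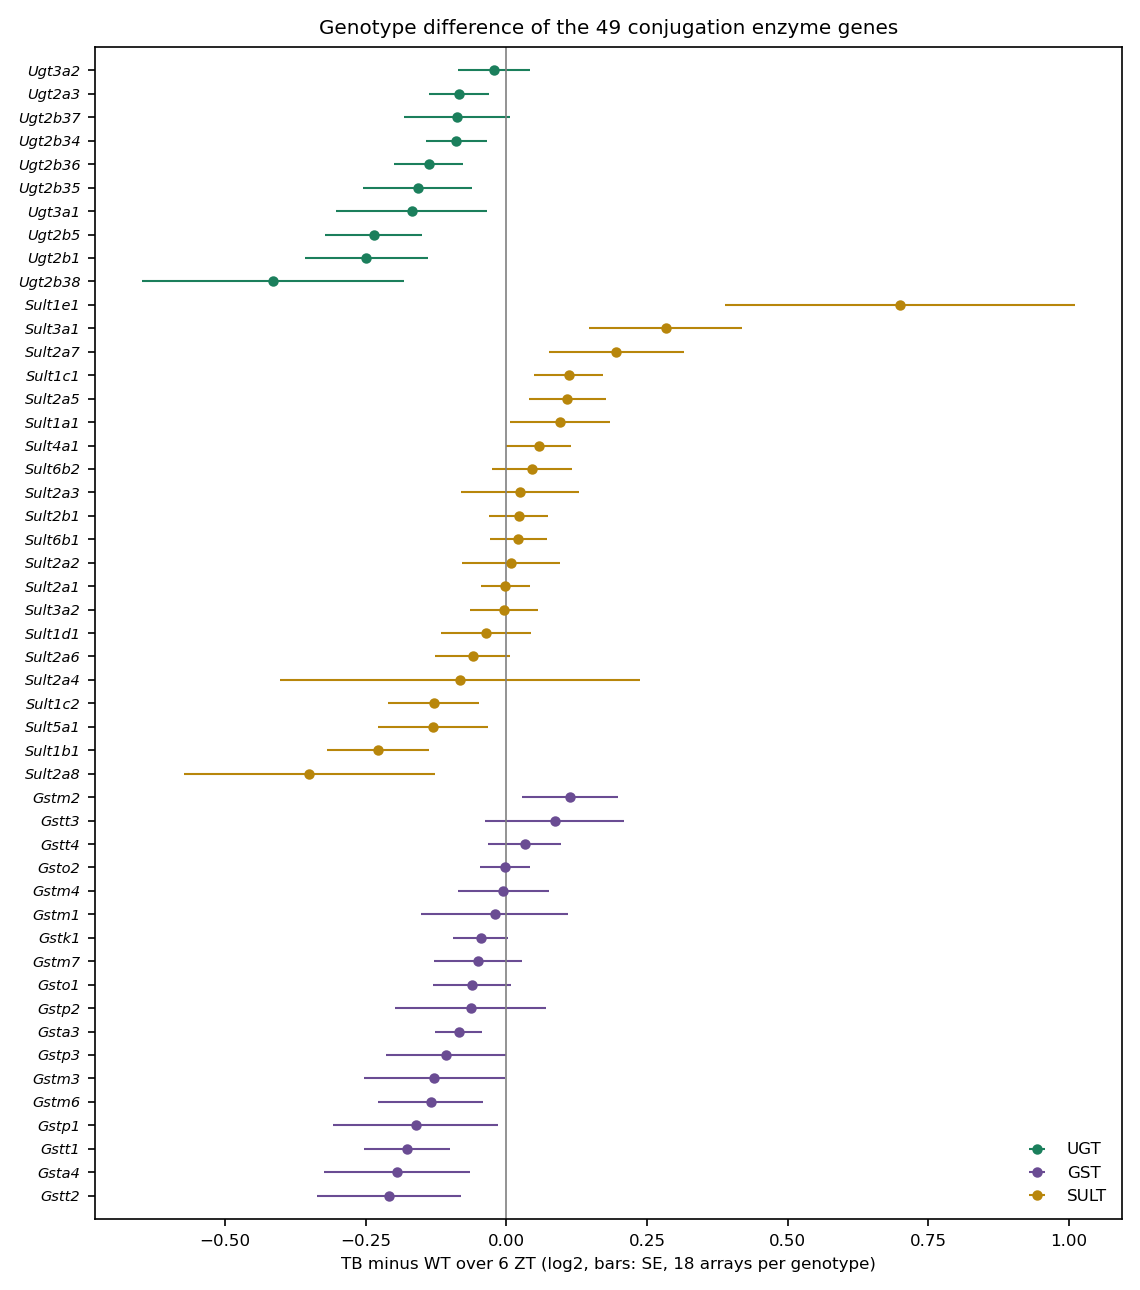
Each point is the TB minus WT difference (log2, horizontal axis) of 1 of the 49 genes (vertical axis) over the 6 ZT, with its SE, coloured by class. All 10 UGT points lie left of 0, from -0.41 for Ugt2b38 to -0.022 for Ugt3a2, and Sult1e1 stands farthest to the right at 0.70.

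Ugt2b5, which belongs to the Ugt2b genes for steroid and drug glucuronidation, had the smallest p of all members. Its level in WT ran from 9.91 to 10.80 with a median of 10.49, and in TB from 9.50 to 10.88 with a median of 10.29. The ranges overlapped over most of their length, and the TB mean was the lower one at 6 of 6 ZT. At ZT 0 this rested on 1 array: the difference was -0.23, and 0.097 without TB ZT 0 replicate 1. The difference was -0.24 ± 0.086 (SE, 18 arrays per genotype), 0.85-fold, with an adjusted p of 0.28. Ugt2b1 ran from 11.45 to 12.52 in WT (median 12.17) and from 10.83 to 12.47 in TB (median 11.97). Its lowest values were the TB arrays ZT 0 replicate 1 (10.83) and ZT 8 replicate 1 (10.84), with all other arrays at 11.45 or more. The difference of Ugt2b1 was -0.25 ± 0.11 (adjusted p = 0.38), lower at 5 of 6 ZT. At ZT 0 it was -0.39, and 0.093 without TB ZT 0 replicate 1. Ugt2b36 was at -0.14 ± 0.061 (adjusted p = 0.38).

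Ugt2b38 had the largest UGT difference, -0.41 ± 0.23 (adjusted p = 0.53), and also a wide spread. It ran from 5.05 to 7.80 in WT and from 4.28 to 7.84 in TB, and both TB extremes belonged to ZT 0, replicate 1 at 4.28 and replicate 3 at 7.84. Ugt3a2, whose family uses other sugars than glucuronate, was at -0.022 ± 0.063, and Ugt3a1 at -0.17 ± 0.13. Without the TB arrays ZT 0 replicate 1 and ZT 8 replicate 1 all 10 UGT genes were still lower in TB, and their median moved to -0.054. Over the 49 members the count that was lower became 30.

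Within the array sets, the lean of the UGT genes was seen in the larger one. There, 10 of 10 UGT genes were lower with a median of -0.27. That set held both TB ZT 0 replicate 1 and TB ZT 8 replicate 1, and it was not refitted without them. Over all genes limma called 5.19% in that set, 821 lower and 331 higher. Among members it called 3 (6.12%), all UGT genes and all lower. These were Ugt2b5 at -0.37 (adjusted p = 0.035), Ugt2b35 at -0.35 (adjusted p = 0.043) and Ugt2b38 at -0.81 (adjusted p = 0.044). The lowest TB array was ZT 0 replicate 1 for Ugt2b5 and Ugt2b38, and ZT 8 replicate 1 for Ugt2b35. In the smaller set 2 of 10 were lower with a median of 0.061, and limma called no gene at all. At an unadjusted p under 0.05 the smaller set had 1 member, higher in TB (8.89% of genes passed), and the larger set 15, all lower (24.8% of genes). How many of those genes were lower was not counted. In the smaller set Ugt2b5 was at 0.033, Ugt2b35 at 0.23 and Ugt2b38 at 0.37. With the set as a block over all 36 arrays, limma called none of the 49, with 0.681% of all genes called, and 9 had an unadjusted p under 0.05 (14.6% of genes), 6 lower and 3 higher. Whether the difference itself differs between the sets was not tested.

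**Figure D2:**
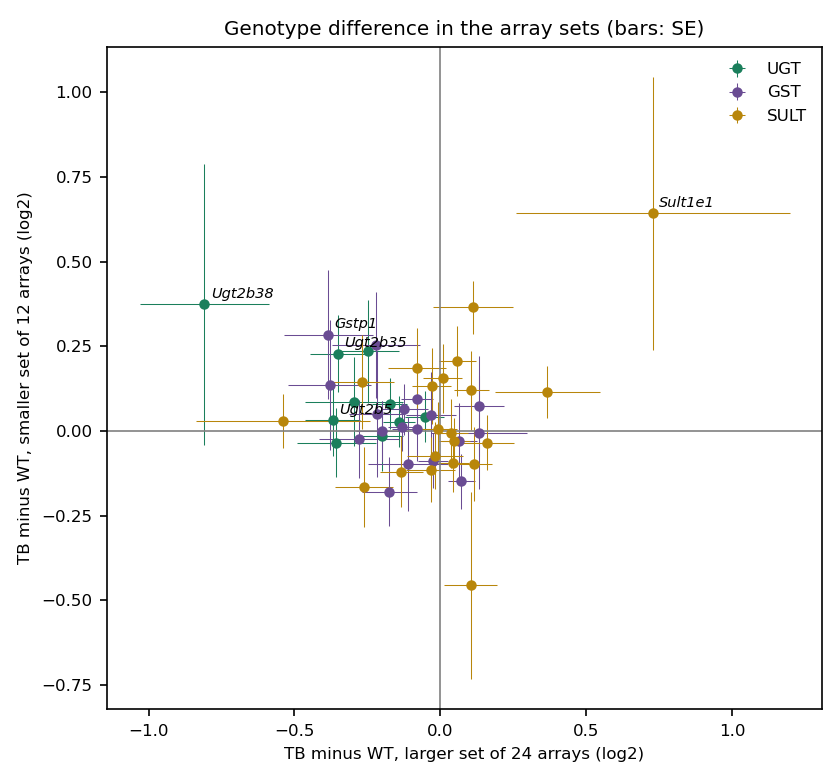
Each point is 1 of the 49 genes, with its TB minus WT difference (log2) in the 24 arrays of the larger set on the horizontal axis and in the 12 arrays of the smaller set on the vertical axis, bars giving the SE. The UGT points lie left of 0 on the horizontal axis and mostly above 0 on the vertical axis, while Sult1e1 is above 0 on both.

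The array sets also moved single members. In 15 of 49 members (30.6%, the same share as among all genes) the level differed between sets, 7 higher and 8 lower in the smaller one. The widest gap was in Sult2a4, of the hydroxysteroid sulfotransferases, with 6.11 to 7.78 in the 12 arrays of the smaller set and 6.07 or less in the others, a difference of 1.69. Gstm1, a major hepatic mu-class transferase, was 0.68 lower in the smaller set.

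GST genes showed smaller differences. Gstt1, a theta-class transferase that acts on small halogenated compounds, had the smallest p of the class, at -0.18 ± 0.077 (0.89-fold, adjusted p = 0.38). Its TB arrays lay entirely below the WT arrays at ZT 16, with 10.07, 10.39 and 10.02 against 10.55, 10.47 and 10.62. Gsta3, an alpha-class transferase that detoxifies aflatoxin epoxide in mice, ran from 11.44 to 11.94 in WT and from 11.13 to 11.95 in TB, a difference of -0.085 ± 0.042 (adjusted p = 0.47). Gsta4, which conjugates the lipid peroxidation product 4-hydroxynonenal, was at -0.19 ± 0.13 (adjusted p = 0.61), and Gstt2 at -0.21 ± 0.13 (adjusted p = 0.57). Gstp1, the pi-class transferase that male mouse liver expresses strongly, was at -0.16 ± 0.15 (adjusted p = 0.73). Its lowest values were again TB ZT 0 replicate 1 (10.78) and TB ZT 8 replicate 1 (10.79), with 11.22 to 12.62 in the other 34 arrays, and without these 2 the difference was 0.00023. Gstm1 was at -0.021 ± 0.13.

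Among the SULT genes the only difference above 0.5 was that of Sult1e1, the estrogen sulfotransferase, which inactivates estrogens and is low in healthy mouse liver. At TB ZT 0 its intensities were 7421, 50.4 and 750, against 40.4, 28.3 and 59.3 at WT ZT 0. On the log2 scale these are 12.86, 6.05 and 9.58 against 5.82, 5.47 and 6.23. Replicates 1 and 3 of TB ZT 0 stood above every other array, while replicate 2 lay inside the WT range, and the other 34 arrays ran from 5.30 to 6.38. The difference at ZT 0 was 3.66 ± 0.76 (adjusted p = 0.45) and over the 6 ZT 0.70 ± 0.31 (adjusted p = 0.39). It depended on those arrays: without TB ZT 0 replicate 1 the difference over the 6 ZT was 0.42, and without replicate 2 it was 0.99 and limma called it, with an adjusted p of 0.012.

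The start of Sult1e1 is shown because this gene has the widest range of the 49. The window is chr5:87591562-87591861, minus strand, 250 bases before to 50 after the start, from RefSeq on GRCm38.p6, in lower case because it holds none of the motifs searched below.
Sult1e1: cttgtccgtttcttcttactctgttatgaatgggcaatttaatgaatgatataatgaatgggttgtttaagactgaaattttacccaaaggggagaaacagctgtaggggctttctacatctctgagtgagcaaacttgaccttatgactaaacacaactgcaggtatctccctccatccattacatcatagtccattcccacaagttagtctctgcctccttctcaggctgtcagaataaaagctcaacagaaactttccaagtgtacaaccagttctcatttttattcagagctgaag

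Sult3a1, a sulfotransferase acting on amines, was near the floor in nearly all arrays. At TB ZT 0 it read 6.77, 4.43 and 4.48, against 4.11, 4.06 and 4.13 at WT ZT 0, so that the TB arrays all lay above the WT arrays. TB ZT 0 replicate 1 was highest of all 36 arrays and TB ZT 8 replicate 1 (5.12) came next, with 4.67 or less in the others. The difference over the 6 ZT was 0.28 ± 0.14 (adjusted p = 0.44). Sult2a8, a bile acid sulfotransferase of male mouse liver, ran the other way: 7.62 in TB ZT 0 replicate 1 and 10.22 in TB ZT 8 replicate 1, with 11.00 to 11.98 in the other 34 arrays. Its difference was -0.35 ± 0.22 (adjusted p = 0.59), and -0.13 without TB ZT 0 replicate 1.

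Sult1b1, which sulfates thyroid hormones and phenols, had the smallest p among SULT genes that were lower. In WT it ran from 6.96 to 8.46 (median 7.82) and in TB from 7.18 to 7.83 (median 7.53), and the difference was -0.23 ± 0.090 (adjusted p = 0.32). At ZT 16 its TB arrays read 7.38, 7.47 and 7.25 against 8.13, 7.99 and 8.01, with no overlap. Sult1a1, the main phenol sulfotransferase, was at 0.096 ± 0.088, and Sult1c1 at 0.11 ± 0.061 (adjusted p = 0.52).

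**Figure D3:**
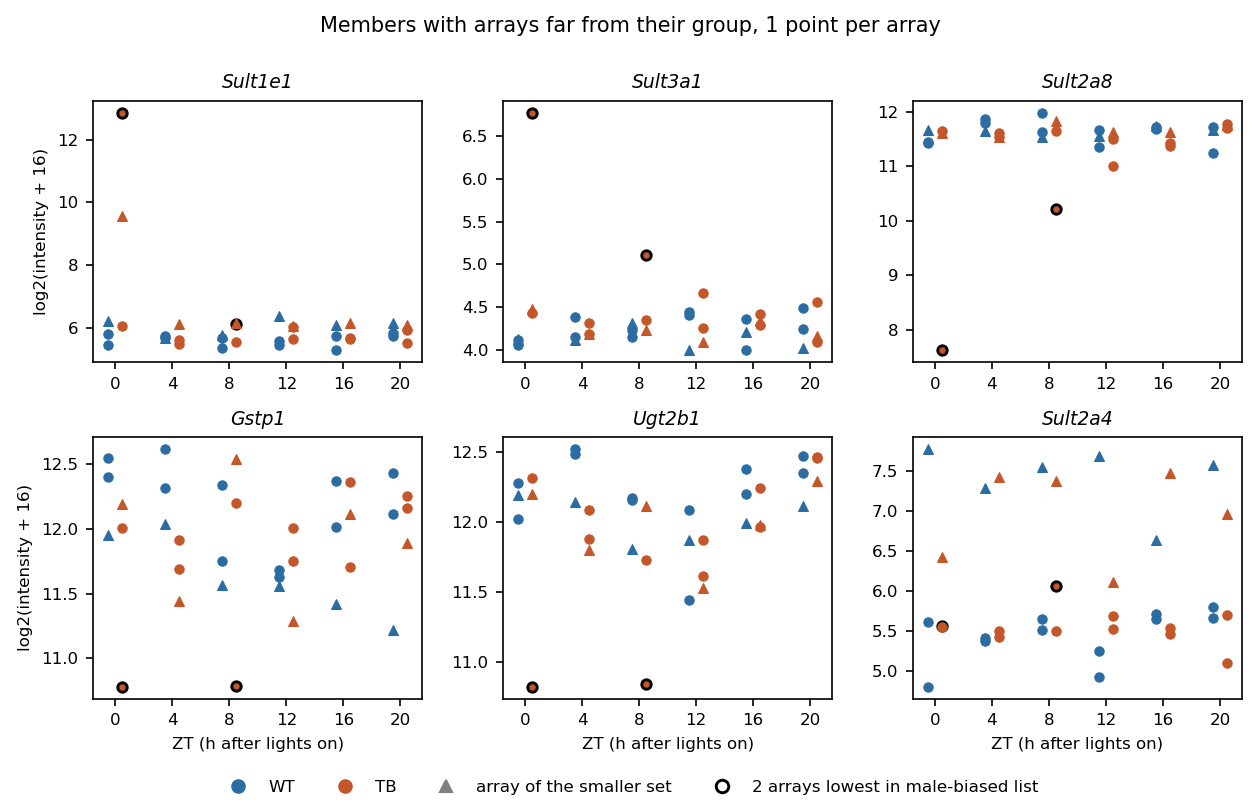
Each point is 1 array, with ZT in hours on the horizontal axis and log2(intensity + 16) on the vertical axis, blue for WT and red for TB, for 6 members chosen after their values were seen. TB ZT 0 replicate 1 (black outline at ZT 0) is at 12.86 for Sult1e1 and 7.62 for Sult2a8, and triangles, the smaller array set, form the upper band of Sult2a4.

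TB ZT 0 replicate 1 was the highest or lowest of the 36 arrays for 15 of 49 members (30.6%), against 7.34% of all genes. It was highest for Gstm1, Gstm3, Gstt3, Sult1a1, Sult1e1 and Sult3a1, and lowest for Gstp1, Gstp2, Sult2a8, Sult5a1, Ugt2a3, Ugt2b1, Ugt2b38, Ugt2b5 and Ugt3a1. Among the other 35 arrays the count was at most 6. The same array had the lowest mean of the 21 genes of a list of male-biased liver genes, -2.23 relative to the average over arrays, where WT arrays ran from -0.63 to 0.53. It also had the highest mean of the 20 female-biased genes, 1.23, where WT arrays ran from -0.63 to 0.46. TB ZT 8 replicate 1 was next lowest in the male-biased list at -1.34 and next highest in the female-biased list at 0.56. Of the male-biased list, 16 of 21 were lower in TB, where 46.2% of all genes were. At an adjusted p of 0.05 limma called 1 gene of this list higher and 0 lower, with 0.176% of all genes called. At an unadjusted p under 0.05, 1 was higher and 5 lower (5.69% and 5.35% of all genes). Of the female-biased list, 15 of 20 were higher in TB and 0 were called, with 4 higher and 2 lower at an unadjusted p under 0.05. The acute phase list was higher in TB for 19 of 19 genes, 3 of them called. The part of these lists in the members' values was not tested.

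By time of day, limma called no member at any single ZT, with 0.00451% of genes called at ZT 8 and 0 genes at the other 5 times. Members with an unadjusted p under 0.05 numbered 6 at ZT 0 (12.2%, against 4.74% of genes), 1 at ZT 4 (2.04%, against 3.26%) and 3 at ZT 8 (6.12%, against 5.3%). There was 1 at ZT 12 (2.04%, against 7.41%), 4 at ZT 16 (8.16%, against 5.38%) and 0 at ZT 20, where 1.81% of genes passed. The interaction of genotype and ZT gave 0 calls, among members and among all genes, and at an unadjusted p under 0.05 it gave 4 members (Sult1e1, Gstt3, Gsto2 and Gstm3), 8.16% against 2.48% of genes.

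The sign of the differences moved over the day. At ZT 0, 16 of 49 members were lower in TB (32.7%, against 44.2% of genes), at ZT 8 it was 33 (67.3% against 55.1%) and at ZT 12 it was 37 (75.5% against 46.5%). At ZT 4 it was 31 (63.3% against 51.3%), at ZT 16 it was 27 (55.1% against 44.4%) and at ZT 20 it was 23 (46.9% against 47.7%). At ZT 4 all 10 UGT genes were lower, with a median of -0.24, at ZT 12 all 10 with a median of -0.17, and at ZT 20 it was 4 of 10 with a median of 0.015. The 6 Gstm genes were higher in TB at ZT 0 in 6 of 6 cases (median 0.32) and lower at ZT 8 in 6 of 6 cases (median -0.39).

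All TB arrays lay above all WT arrays at ZT 0 in 6 members (Gsta4, Gstm2, Gstm3, Gstm4, Gstt3 and Sult3a1), where 4.27% of genes did so. Gstt3, a theta-class transferase, read 10.51, 9.13 and 9.25 in TB against 8.44, 8.49 and 8.63 in WT at ZT 0, a difference of 1.11 ± 0.30 (adjusted p = 0.79), and 0.67 without TB ZT 0 replicate 1. Gstm2, a mu-class transferase, read 9.69, 9.61 and 9.92 in TB against 9.09, 9.05 and 9.54 (difference 0.51 ± 0.21), and its value without that replicate was 0.54. At ZT 8 the lowest p belonged to Gstm3, with 7.70, 9.21 and 7.82 in TB against 9.30, 8.89 and 9.19 in WT. TB replicate 2 lay within the WT range and the other TB arrays below it, and the difference was -0.88 ± 0.31 (adjusted p = 0.79).

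At ZT 16 all TB arrays lay below all WT arrays in 11 members (22.4%), where 5.36% of genes did so: Gsta3, Gstt1, Gstt2, Sult1b1, Sult1d1, Sult2a3, Sult2a8, Ugt2a3, Ugt2b36, Ugt2b5 and Ugt3a1. At ZT 4 this held for 8 members (16.3%), where 4.58% of genes did so: Gstp1, Sult1b1, Sult1c2, Sult2a6, Sult2a8, Ugt2b1, Ugt2b38 and Ugt2b5. Gstt2 at ZT 16 read 7.27, 6.75 and 7.26 in TB against 8.04, 8.03 and 8.02 in WT, a difference of -0.93 ± 0.31 (adjusted p = 0.85). Gsto2, an omega-class enzyme that reduces dehydroascorbate, was among 3 members with all TB arrays above all WT arrays at ZT 16 (6.12%, against 7.98% of genes), by 0.29 ± 0.11. TB lay entirely below WT in 0 members at ZT 0 (2.2% of genes), in 3 at ZT 8 (6.12%, against 5.85%), in 4 at ZT 12 (8.16%, against 4.26%) and in 1 at ZT 20 (2.04%, against 3.3%). It lay entirely above in 2 at ZT 4 (4.08%, against 4.8%), in 2 at ZT 8 (4.08%, against 3.54%), in 1 at ZT 12 (2.04%, against 6.79%) and in 0 at ZT 20 (3.26% of genes).

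**Figure D4:**
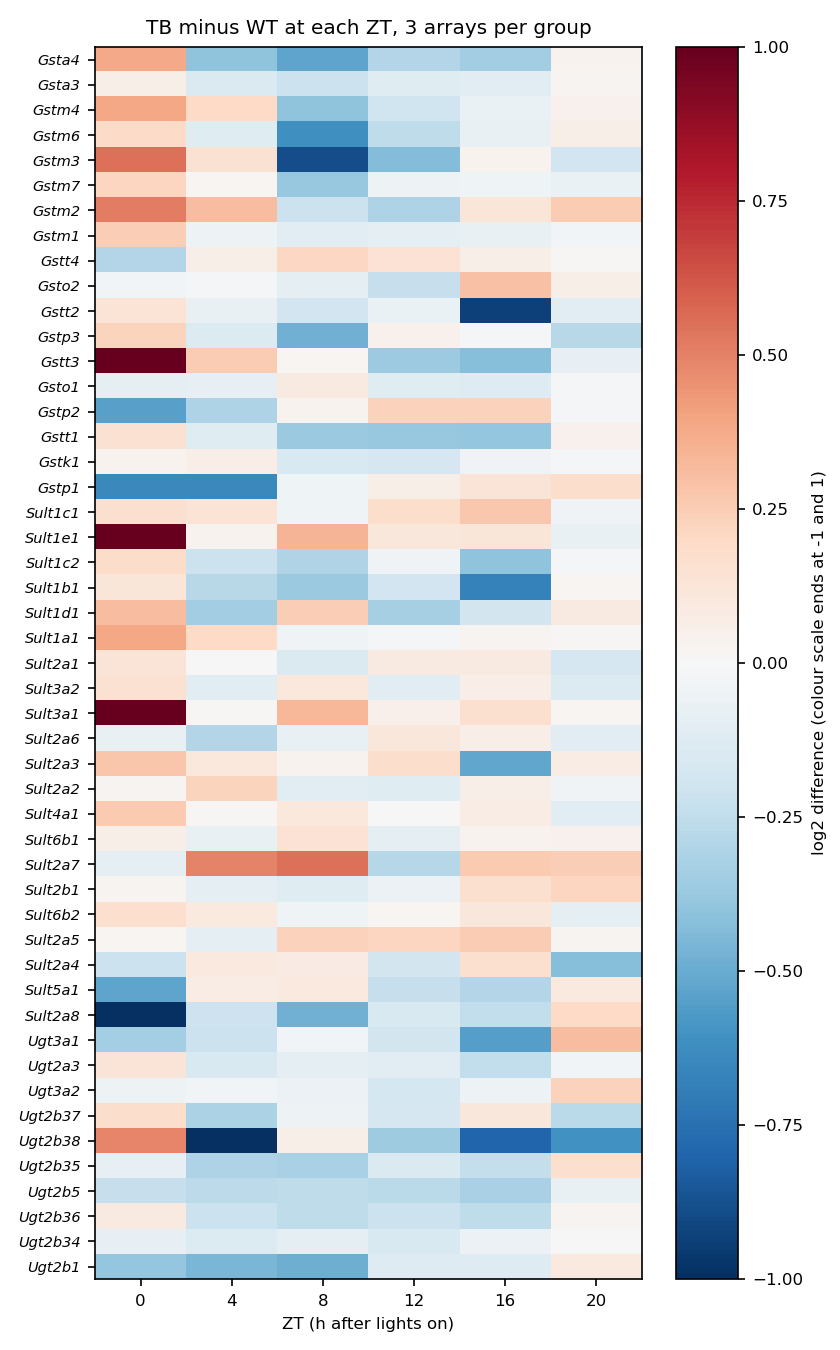
Each row is 1 of the 49 genes and each column 1 ZT in hours, with colour giving TB minus WT (log2), red for higher and blue for lower in TB, with the colour scale ending at -1 and 1. The Gstm rows turn from red at ZT 0 to blue at ZT 8, and the UGT rows are mostly blue at ZT 4, 12 and 16.

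Daily rhythm was tested with a 24 h cosine in each genotype. The amplitude is the height of the fitted curve above its mean in log2, and the peak is its ZT in hours. In WT liver 1 of 49 members was rhythmic at an adjusted p of 0.05 (2.04%, against 6.45% of genes), and in TB liver 6 were (12.2%, against 4.95%), all of them GST genes. No member passed in both genotypes, where 2.68% of genes did. At an unadjusted p under 0.05 there were 7 members in WT (14.3%) and 20 in TB (40.8%), where 16.8% of genes passed in each. The test of a difference in rhythm between the genotypes called 0 members and 0 genes by limma, and 5 members (10.2%, against 4.8% of genes) had an unadjusted p under 0.05. So none of the TB rhythms is shown to differ from WT.

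The member called in WT was Sult1c2, a sulfotransferase of the Sult1 group. Its arrays read 6.15, 5.77 and 5.93 at ZT 0, then 6.64, 6.57 and 6.64 at ZT 4, and 7.15, 6.78 and 6.69 at ZT 8. They read 6.57, 6.87 and 6.26 at ZT 12, 6.61, 6.29 and 6.52 at ZT 16, then 5.96, 6.45 and 5.88 by ZT 20. All ZT 8 arrays lay above those of ZT 0 and ZT 20. The amplitude was 0.41 ± 0.081 (SE) with a peak at ZT 9.3 (adjusted p = 0.0030). In TB it was 0.28 ± 0.081 with a peak at ZT 8.2 (adjusted p = 0.078). Next in WT came Gsta3 (adjusted p = 0.055), Gstm4 (0.081) and Gstt2 (0.097).

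Gsta3 had the smallest p in TB. Its arrays read 11.49, 11.78 and 11.79 at ZT 0, 11.58, 11.49 and 11.33 at ZT 4, and 11.32, 11.57 and 11.13 at ZT 8. They read 11.40, 11.47 and 11.57 at ZT 12, 11.70, 11.67 and 11.72 at ZT 16, then 11.89, 11.85 and 11.95 by ZT 20. These last arrays lay above all other TB arrays. The amplitude was 0.26 ± 0.040 with a peak at ZT 19.9 (adjusted p = 0.00020), and in WT it was 0.15 ± 0.040 with a peak at ZT 18.8. The test of the difference gave an unadjusted p of 0.11.

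The Gstm genes, which lie together in the genome, had the larger fitted amplitude in TB in 6 of 6 cases, with a median of 0.37 in TB and 0.18 in WT, where 50.4% of all genes and 30 of 49 members (61.2%) had the larger one in TB. The count was also 6 of 6 in the larger array set, in the smaller one and without ZT 0. The same count was found without the 2 arrays TB ZT 0 replicate 1 and TB ZT 8 replicate 1. These fits reuse arrays of the main fit, so they are not independent repeats. The share of all genes with the larger amplitude in TB was not counted in them. Because the Gstm probe sets can share signal, 6 of 6 may not stand for 6 separate results. Gstm2 had an amplitude of 0.47 ± 0.080 with a peak at ZT 0.70 in TB (adjusted p = 0.00059) and 0.19 ± 0.080 in WT (adjusted p = 0.38). Its TB arrays were between 9.22 and 10.02 at ZT 0 and ZT 4 and between 8.49 and 8.96 at ZT 12, without overlap. Gstm3 had 0.56 ± 0.13 with a peak at ZT 0.21 (adjusted p = 0.014), Gstm4 0.38 ± 0.080 with a peak at ZT 2.4 (adjusted p = 0.0063) and Gstm6 0.36 ± 0.094 with a peak at ZT 23.2 (adjusted p = 0.042). Gstm7 had 0.27 ± 0.075 and did not pass (adjusted p = 0.065). Gstt3 had 0.51 ± 0.12 with a peak at ZT 0.34 (adjusted p = 0.026), against 0.20 ± 0.12 in WT.

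By limma's F test over the 6 ZT as levels, with no curve, 3 members were called in TB (6.12%, against 2.17% of genes). These were Gsta3 (adjusted p = 0.010), Gstm2 (0.030) and Sult1e1 (0.010), while Gstm4 (0.073), Gstm3 (0.11), Gstt3 (0.11) and Gstm6 (0.25) did not pass. In the larger array set alone, the cosine gave TB calls for Gsta3, Gsta4, Gstm2 and Gstm3 (4.25% of genes). Gstm4, Gstm6 and Gstt3 were not called there. With Xist as a covariate the calls were Gsta3, Gstm2, Gstm3 and Gstm4 (3.81% of genes). With the cosine on all arrays, Gsta3, Gstm2 and Gstm4 kept their TB call when any of the 36 arrays was left out. Gstm3 lost it once, without TB ZT 12 replicate 3, Gstt3 lost it in 3 cases, without TB ZT 0 replicate 1 among them, and Gstm6 in 12. Without TB ZT 0 replicate 1, 12 members were called in TB (24.5%, where 6.77% of genes were), and without it and TB ZT 8 replicate 1, 11 were called (where 5.38% of genes were), with Sult1c2, Sult1d1, Ugt2b1, Ugt2b34, Ugt2b35 and Ugt3a1 joining and Gstt3 leaving. The unadjusted p of the difference in rhythm was 0.0041 for Gstt3, 0.0056 for Gstm2, 0.026 for Gstt1, 0.027 for Gstm4 and 0.029 for Gstm3.

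**Figure D5:**
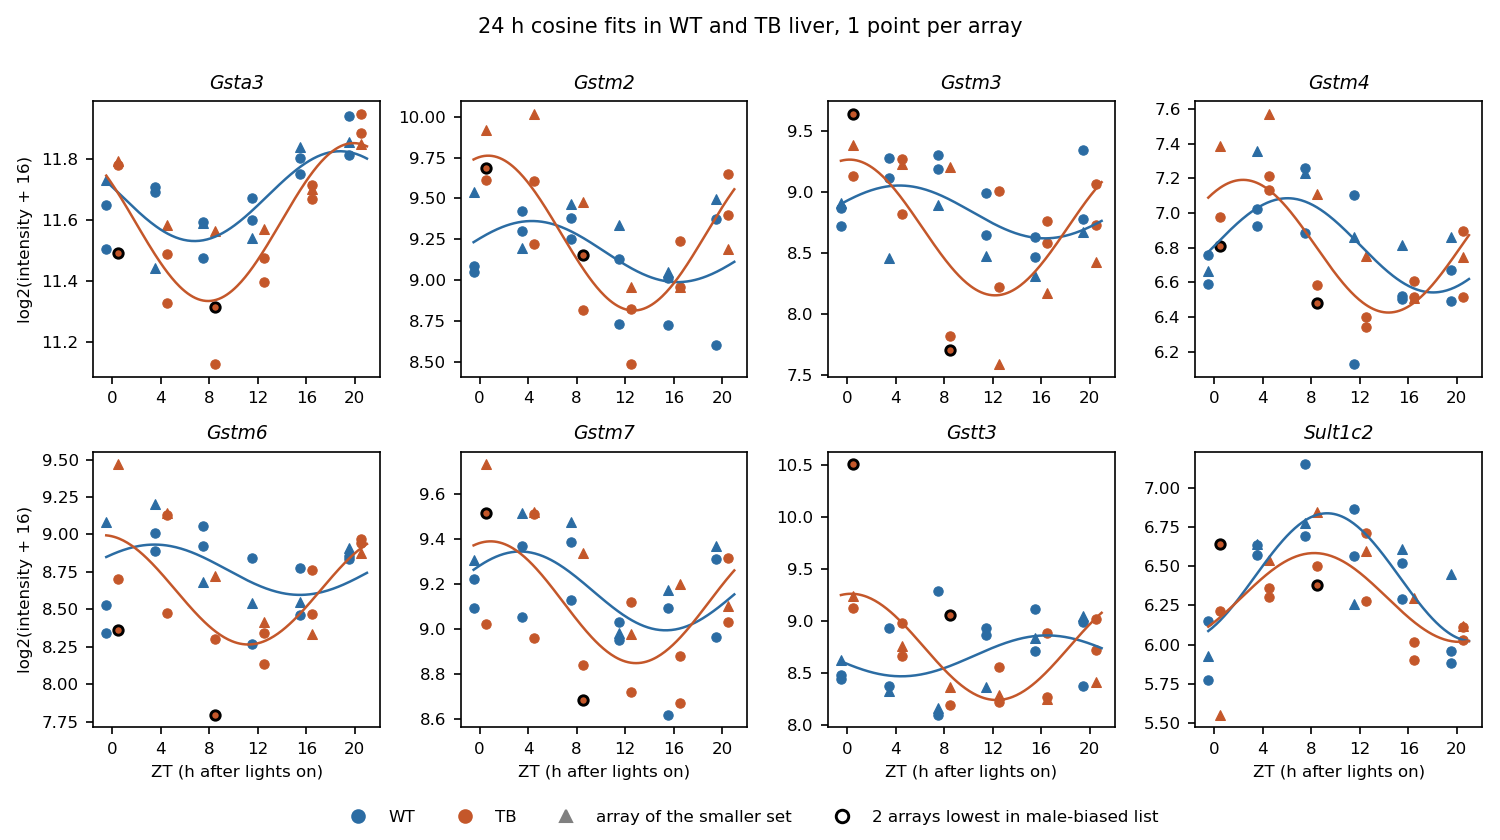
Points are single arrays by ZT in hours (horizontal axis) and log2(intensity + 16) (vertical axis), and lines are the 24 h cosine fits for WT (blue) and TB (red). The red curves of the Gstm genes reach higher at ZT 0 and lower at ZT 12 than the blue ones, and for Sult1c2 the blue curve has the larger amplitude, 0.41 against 0.28.

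The windows of Gsta3, Gstm2 and Sult1c2 are shown because these had the clearest rhythms. All are 250 bases before to 50 after the start, from RefSeq on GRCm38.p6: chr1:21240335-21240634 (plus strand), chr3:107986371-107986670 (minus strand) and chr17:53845909-53846208 (minus strand). Capitals mark a match to the antioxidant response element as searched.
Gsta3: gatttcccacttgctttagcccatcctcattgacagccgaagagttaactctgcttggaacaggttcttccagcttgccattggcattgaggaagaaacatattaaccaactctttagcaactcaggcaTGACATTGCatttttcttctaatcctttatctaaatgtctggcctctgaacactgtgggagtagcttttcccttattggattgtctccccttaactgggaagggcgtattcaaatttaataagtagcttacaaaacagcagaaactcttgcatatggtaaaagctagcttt
Gstm2: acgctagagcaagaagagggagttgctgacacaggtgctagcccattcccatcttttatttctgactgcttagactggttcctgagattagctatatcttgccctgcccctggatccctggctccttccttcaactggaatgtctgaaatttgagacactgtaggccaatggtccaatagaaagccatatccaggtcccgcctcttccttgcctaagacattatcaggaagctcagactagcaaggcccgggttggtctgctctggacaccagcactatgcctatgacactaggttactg
Sult1c2: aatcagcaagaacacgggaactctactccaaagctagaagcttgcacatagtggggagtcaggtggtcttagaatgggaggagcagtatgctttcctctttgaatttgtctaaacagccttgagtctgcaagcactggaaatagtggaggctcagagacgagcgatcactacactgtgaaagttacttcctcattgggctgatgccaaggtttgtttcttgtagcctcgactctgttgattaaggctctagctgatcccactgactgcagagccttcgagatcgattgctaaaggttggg

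Of the 49 members, 42 had such a window, 52 windows in all. Motifs were searched on both strands as letters only, with N for any base. They were the E-box CACGTG bound by CLOCK and BMAL1 and the antioxidant response element TGACNNNGC bound by NRF2. The D-box of Dbp, Tef and Hlf was searched in the loose form TTANGTAA. The E-box was in 0 of 52 member windows (7.15% of all 32851 windows). D-box letters were in 2 (3.85%, against 2.32%), those of Sult1a1 and Ugt2b1, and antioxidant response letters in 2 (3.85%, against 12.39%), those of Gsta3 and Gstm7. The D-box matches read TTAGGTAA for Sult1a1 and TTACATAA, a match on the other strand, for Ugt2b1. Binding was not tested.

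Genes around conjugation were described from lists chosen by function. A list around UDP-glucuronate held Ugdh, Ugp2, Slc35d1, Slc35b1, Gusb and Ugt8a, not all of which supply it. Of these 6 genes 5 were lower in TB, where 46.2% of all genes were, and 0 were called by limma. At an unadjusted p under 0.05 Ugp2 and Slc35b1 were lower and Ugt8a was higher. Ugp2, which makes UDP-glucose, was at -0.31 ± 0.085 (adjusted p = 0.13), and Ugdh, which oxidises it to UDP-glucuronate, at -0.083 ± 0.077. Ugdh was rhythmic in TB (amplitude 0.37, peak ZT 23.4, adjusted p = 0.0029) and had an adjusted p of 0.17 in WT. Of 9 genes for PAPS and sulfate, 8 were lower with 0 called, among them the sulfate transporter Slc26a1 at -0.20 ± 0.064 (adjusted p = 0.19) and the PAPS synthase Papss1 at -0.15 ± 0.069 (adjusted p = 0.43). Both lists were lower mostly in the larger array set, with medians of -0.15 and -0.12 there and 0.075 and 0.049 in the smaller set.

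Of 14 genes listed around glutathione, not all of which supply it, 6 were lower and 0 were called. In WT 3 were rhythmic (6.45% of all genes were), Chac1 among them. In TB 5 were (4.95% of all genes), with Chac1 and Chac2 among them. Gclc, the catalytic subunit of the rate-limiting ligase of glutathione synthesis, had amplitudes of 0.56 in WT and 0.66 in TB (adjusted p = 0.0055 and 0.0013), with peaks at ZT 0.70 and 23.2. Among 19 further genes listed around conjugation, not all of them conjugating enzymes, 13 were lower (68.4%, against 46.2% of all genes) and 0 called. At an unadjusted p under 0.05 by limma, Ephx2, Ethe1 and Nat8 were lower and Nnmt was higher. Nat8, which acetylates cysteine conjugates after the glutathione step, was at -0.41 ± 0.14 (adjusted p = 0.25). Of 25 regulators, a list that includes the clock genes Arntl and Nr1d1, 10 were rhythmic in WT (6.45% of all genes) and 11 in TB (4.95%). Between the genotypes 0 differed in level by limma, with 2 higher and 1 lower at an unadjusted p under 0.05. Dbp had amplitudes of 2.34 in WT and 2.25 in TB with peaks at ZT 10.5 and 10.1, and Tef 1.11 and 0.92. Hlf passed in WT (0.36, adjusted p = 0.00050) and had an adjusted p of 0.13 in TB. The CAR gene Nr1i3 was at 0.12 ± 0.11 and the PXR gene Nr1i2 at 0.020 ± 0.063 between genotypes. Nfe2l2, which encodes NRF2, was called rhythmic in TB (amplitude 0.21, peak ZT 20.9, adjusted p = 0.043) and had an adjusted p of 0.90 in WT. No difference in rhythm between the genotypes was called for any gene of these lists, so a call in 1 genotype alone does not show one.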

How the data were processed

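Mouse liver RNA was measured on 36 1-colour Affymetrix arrays. The deposited values are linear probe set intensity values, made by the authors with Affymetrix Expression Console 1.1.1 and PLIER 2.0 per the submitters' processing notes; how arrays were normalized to each other, and with which settings, is not given in the sources used here. The median of an array was 36.3 to 43.3, 23.0% of values were under 16, and correlations over genes within groups were r = 0.928 to 0.989. With 3 arrays in a group, their number limits the precision.

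Of 41345 probe sets, 23521 had 1 gene symbol in the platform annotation, 1814 had several and 16010 none, and 23328 single symbols were found in the gene table of RefSeq. The probe set with the highest mean stood for a gene (22180 genes, each member with 1 probe set). No normalization or filter was added.

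Values were taken as log2(value + 16). limma 3.58.1 in R 4.3.3 (lmFit, eBayes) fitted 12 group means on all 36 arrays, with contrasts for the genotype difference, each ZT and their interaction, and a second model with a mean, cosine and sine of 24 h per genotype. Adjusted p-values are Benjamini-Hochberg over 22180 genes, with 0.05 as threshold. Scripts were tested on simulated data. List values per array are means of log2 values centred over arrays. The array sets are the sides of the first component (28.6% of variance) of deviations from group means over probe sets with no symbol; in the smaller set, 1 array per group, time was additive.

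Members and lists were chosen with earlier results of these data known. Named were, for each test, members past the threshold and those of smallest p up to 10, the member with the highest mean and with the largest difference of each subfamily, and list genes by smallest p; others, and the non-overlapping ones, were named after their values were seen. Other settings were a pseudocount of 1, quantile normalization, a filter on genes of low mean, the mean of probe sets, replicate and array set blocks, each array set, Xist as a covariate, no muscle array, a variance trend, a 6-level time factor, only the arrays of a ZT, and each array left out. Fits without ZT 0 or without the 2 arrays lowest in the male-biased list were added after seeing the data, as was a block of same-numbered arrays within each ZT. No array had opposing Xist and Y-linked levels, so none was left out for sex. One part of the TB genotype is not reported here.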

Additional observations from a re-analysis of the deposited data

How the results depend on the processing

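The genotype call of 0 members became 3 in the larger array set alone (6.12%, against 5.19% of genes). In that set 1 member was called at ZT 8, from 2 arrays of each group, TB ZT 8 replicate 1 among them. The share of all genes called at ZT 8 there was not counted. Single arrays left out gave 0 to 1 members for genotype, also at ZT 0 and for the interaction. Members lower in TB numbered 20 of 49 in the smaller set, where 9144 of 22180 genes were lower, so the members there were near the share of all genes. With single arrays left out they numbered 29 to 35, against 34. Rhythmic members in WT numbered 1, where 6.45% of all genes passed. With a filter on genes of low mean they became 2 of 33 (10.8% of genes). They were 2 in the larger set (6.57% of genes), without the 2 arrays lowest in the male-biased list (6.94%) and without ZT 0 (5.29%). They became 3 with the array set as a block (9.03%), 0 in the smaller set, and 1 to 3 with arrays left out. Rhythmic members in TB (6) became 0 in the smaller set and 3 by the F test over 6 levels of ZT (Gsta3 and Gstm2 of the 6, and Sult1e1). They became 4 in the larger set (4.25% of genes) and with Xist as a covariate (3.81%), and 8 with the array set as a block (7.48%). They became 11 without the 2 arrays (5.38%), and 4 to 12 with arrays left out. In the smaller set limma called few genes rhythmic at all, 0.0721% in WT and 0.0857% in TB, so 0 members there says little about the members. The sign in the smaller set was compared for members only, with no share over all genes. In the smaller set the difference had the other sign in 26 of 49 members (8 of 10 UGT, 11 of 18 GST and 7 of 21 SULT). Of the 19 members chosen by rule for this comparison these were Ugt2b5 (0.033), Gsta3 (0.011), Ugt2b38 (0.37), Gstm1 (0.096), Gstp1 (0.28), Gstt2 (0.14), Sult2a8 (0.028), Sult1a1 (-0.034), Ugt3a2 (0.042) and Ugt3a1 (0.086). Gstm1 turned with quantile normalization (0.0039) and with Xist (0.054), and Gstp1 without the 2 arrays (0.00023). With arrays left out Gstm1 ran from -0.076 to 0.029 and Ugt3a2 from -0.043 to 0.0012. The cause was not tested. The replicate block gave 0 calls for genotype, 34 lower, 1 rhythmic in WT and 6 in TB, so it changed no such count, and the labels give the number no meaning. Same-numbered arrays of a ZT correlated over 0.1 in 14 of 18 pairs and best with their own number in 13, a hint of pairing that falls short of every pair, and the array sets run with the numbers within each ZT. With these 18 pairs as a block, chosen after seeing the data, limma called 0 members for genotype (59 genes called, against 39), at each ZT, for the interaction and for the difference in rhythm. At an unadjusted p under 0.05 it gave 7 members for genotype (13.5% of genes passed), 6 for the interaction (3.5%) and 7 for the rhythm difference (6.53%). Without this block these were 7 (11% of genes), 4 (2.48%) and 5 (4.8%). Dim members have values near the floor, and 3 arrays per group bound what a single ZT can show.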
